A study of Homo sapiens with 6 samples.

Results

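The 9 genes for platelet glycoproteins and surface markers followed here through a phorbol ester time course of chromatin accessibility were GP1BA, GP1BB, GP9, GP5, GP6, CD36, CD9, CD63 and CLEC1B. Every site of the deposited table that overlapped the body of one of the 9 genes, extended by 50000 bases on each side, was taken (hg38). The rule gave 133 sites of the 181135 in the table, in the windows of 8 genes. CLEC1B had no site. A read count for each site and library was available, and 131 of the 133 sites had enough reads to be tested.

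The cells were K562, an established human leukaemia line with erythroid features, of wild-type genotype as labelled. They received 25 nM phorbol 12-myristate 13-acetate (PMA), an activator of protein kinase C, for 0, 6 or 72 h, and the medium was replaced during the longest treatment. Each time had 2 libraries of open chromatin, made by the Omni variant of ATAC-seq, in which a transposase cuts accessible DNA. K562 is a single line and not a primary megakaryocyte, so the time points show how this line responded to PMA. Whether the 2 libraries of a time came from separate cultures is not given in the sources used here, so the tests measure the spread between these libraries, which may be technical. In bulk libraries, a site open in more cells and a site more open in each cell cannot be told apart.

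GP1BA, GP1BB, GP9 and GP5 encode the GPIb-IX-V complex, through which platelets bind von Willebrand factor on a damaged vessel wall. GP6 is a collagen receptor that signals through the Fc receptor gamma chain, CD36 binds thrombospondin and lipids, and CLEC1B (CLEC-2) is the receptor of podoplanin. CD9 and CD63 are tetraspanins, membrane proteins that organise other receptors, and CD63 sits in granules and lysosomes until a platelet is activated. In the megakaryocyte lineage many of these genes are known targets of GATA, ETS and RUNX factors, and AP-1 factors are known effectors of protein kinase C signalling.

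The starts of these genes differed in sequence as well as in accessibility, and the bases just upstream of 6 of them are shown to let both be read together. RefSeq promoter sequences of GRCh38.p14 were matched for 8 of the 9 genes, with 23 starts. Each run ends 1 base before the most upstream start and reads 5′ to 3′ on the strand of the gene. Capitals mark matches on either strand to the GATA words AGATAA and its variant AGATAG, also with TGATAA as well as TGATAG, to the ETS words CCGGAA and its variants CAGGAA as well as ACGGAA, to the AP-1 word TGANTCA and to the RUNX word TGTGGT. The first 4 starts lay in or beside a site of the table, and the last 2 had none within 1000 bases.
GP1BB (chr22:19723320-19723538, + strand): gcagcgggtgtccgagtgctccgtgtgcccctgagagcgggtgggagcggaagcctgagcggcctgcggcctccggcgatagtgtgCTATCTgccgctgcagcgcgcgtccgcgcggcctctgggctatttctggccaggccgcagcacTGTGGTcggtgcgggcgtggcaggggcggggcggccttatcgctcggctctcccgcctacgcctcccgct
GP6 (chr19:55038265-55038514, − strand): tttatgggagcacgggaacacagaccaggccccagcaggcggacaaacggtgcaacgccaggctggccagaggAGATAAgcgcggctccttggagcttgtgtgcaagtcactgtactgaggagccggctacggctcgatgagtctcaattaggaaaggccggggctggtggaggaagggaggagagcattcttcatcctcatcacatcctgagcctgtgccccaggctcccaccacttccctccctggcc
CD63 (chr12:55730042-55730291, − strand): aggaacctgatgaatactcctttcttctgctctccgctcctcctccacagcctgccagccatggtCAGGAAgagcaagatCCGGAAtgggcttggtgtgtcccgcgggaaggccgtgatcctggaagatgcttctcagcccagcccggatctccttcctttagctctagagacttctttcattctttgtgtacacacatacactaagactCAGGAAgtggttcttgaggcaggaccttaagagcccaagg
CD9 (chr12:6199696-6199945, + strand): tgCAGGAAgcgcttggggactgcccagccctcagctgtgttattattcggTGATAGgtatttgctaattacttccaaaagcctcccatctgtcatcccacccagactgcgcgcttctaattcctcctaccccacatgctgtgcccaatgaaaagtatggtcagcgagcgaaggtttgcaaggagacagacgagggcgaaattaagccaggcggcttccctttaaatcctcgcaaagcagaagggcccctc
GP5 (chr3:194399267-194399516, − strand): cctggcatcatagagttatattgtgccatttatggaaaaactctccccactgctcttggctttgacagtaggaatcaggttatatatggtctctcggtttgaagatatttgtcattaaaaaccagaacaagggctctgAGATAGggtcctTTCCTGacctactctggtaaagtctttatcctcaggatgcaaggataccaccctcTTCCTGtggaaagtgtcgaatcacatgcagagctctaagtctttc
CD36 (chr7:80601957-80602206, + strand): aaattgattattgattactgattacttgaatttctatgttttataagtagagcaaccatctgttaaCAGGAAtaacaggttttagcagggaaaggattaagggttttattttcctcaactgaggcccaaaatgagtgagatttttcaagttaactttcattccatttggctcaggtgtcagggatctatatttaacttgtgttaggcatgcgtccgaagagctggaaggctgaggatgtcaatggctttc
The run of GP1BB, 219 bases, is shorter than the 250 of the others because bases inside the interval of its neighbour SEPTIN5 are left out. It held 1 GATA and 1 RUNX match, and the run of GP6 held 1 GATA match. CD63 had 3 ETS matches, CD9 had 1 ETS and 1 GATA match, GP5 had 1 GATA and 2 ETS matches, and CD36 had 1 ETS match. No AP-1 match lay in these runs, and no matches overlapped each other. Among all 35116 RefSeq promoters of 300 bases, from 250 before to 50 after the start, 25.0% held a GATA match, 45.1% an ETS, 7.71% an AP-1 and 13.1% a RUNX match, so the matches themselves are common. In the same 300-base windows, GC content was 69.3% at GP1BB, 62.3% at GP9, 61.3% at GP6, 56.0% at CD63 and 55.3% at CD9. It was 42.0% at GP5, 38.7% at CD36 and 38.3% at CLEC1B, against a median of 58.7% over all promoters. The windows of GP1BB, GP6 and CD63 were covered by a site over all 300 bases and that of CD9 over 228, while those of GP9, GP5, CD36 and CLEC1B were covered over 0. GP9 thus combined a GC-rich RefSeq start with no site on it.

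Sites fell into 3 classes: promoter sites, within 1000 bases of a start of one of the 9 genes, other promoter sites, within 1000 bases of a start of another protein-coding gene, and distal sites. Sites keep their names from the deposited table. There were 9 promoter sites, 20 other promoter sites and 104 distal sites. For GP1BA and other genes whose strand the tables used here do not give, either end of the gene was taken as a start. Levels are given as CPM, read counts scaled to a common library size with TMM factors, and changes as log2 fold changes with their standard error (SE) from the quasi-likelihood test of edgeR over all 177759 tested sites. A site was called at a Benjamini-Hochberg adjusted p under 0.05, and SDs are over the 2 libraries of a time.

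**Figure D1:**
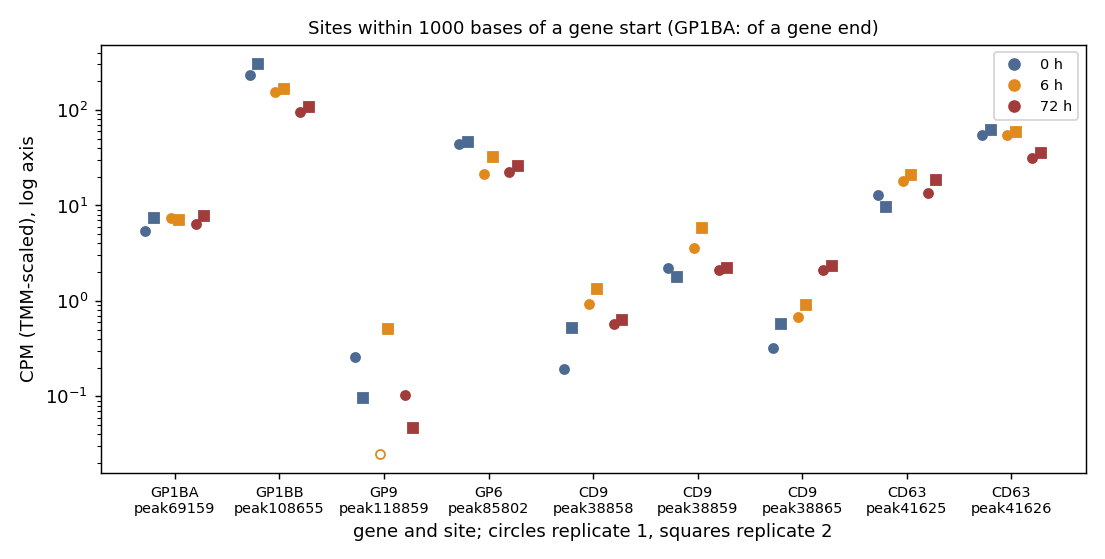
Level of each promoter site in each library, as TMM-scaled CPM on a log axis, with circles for replicate 1 and squares for replicate 2. The open circle at GP9 stands for 0 CPM. The sites of GP1BB, GP6 and CD63 lay above 9 CPM in all 6 libraries, and those of CD9 and GP9 below 6.

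At 6 h, 59 of the 131 tested sites were called against 0 h, 32 higher and 27 lower, where 40.1% of all tested sites of the table were called, 23.4% of the tested sites being higher and 16.8% lower. At 72 h, 93 sites were called against 0 h, 37 higher and 56 lower, where the table as a whole had 67.4% called, 38.2% higher and 29.2% lower. Between 6 and 72 h, 49 sites were called, 10 higher and 39 lower at 72 h, with 42.9% called in the table, 22.1% higher and 20.9% lower. Taken over the tested sites of the windows, the log2 fold change had a median of 0.01 at 6 h and −0.42 at 72 h, against 0.05 and 0.29 over all tested sites. The lower calls thus outnumbered the higher ones at 72 h in these windows and not in the table as a whole. Of the 32 sites higher at 6 h, 26 were also higher at 72 h, 1 was lower and 5 were not called, and of the 27 lower at 6 h, 26 were also lower at 72 h. The 2 comparisons share their 0 h libraries. The same division was not counted over all tested sites, so it is not read as a trait of these windows.

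The direction of a change rested in part on how libraries were scaled to each other. Under 5 scalings, namely TMM, RLE, total counts, loess offsets that follow site strength, and TMM factors from sites with a peak in every library, the median of all tested sites at 72 h was 0.29, 0.11, 0.79, −0.04 and 1.26. Called in the same direction under all 5 were 27 of the 32 sites higher at 6 h and 11 of the 27 lower ones, and at 72 h 24 of the 37 higher and 13 of the 56 lower ones. For 72 h against 6 h, 5 higher and 5 lower sites were called under all 5. Leaving out either 72 h library lowered the number of calls in that comparison, in these windows and over all tested sites alike. Such a fit has a lone library at 72 h, so the loss is not read as a trait of these windows. Under the factors from shared peaks the division at 72 h turned round, to 62 higher and 18 lower. The windows also hold sites of neighbouring genes. Among sites whose nearest gene start was that of one of the 9 genes, 20 were higher and 15 lower at 72 h, and 16 higher and 9 lower at 6 h. Higher calls also outnumbered lower ones over all tested sites of the table, at 38.2% against 29.2% at 72 h and 23.4% against 16.8% at 6 h. A rise or a fall in what follows is on the TMM scale, with the number of scalings that called it.

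**Figure D2:**
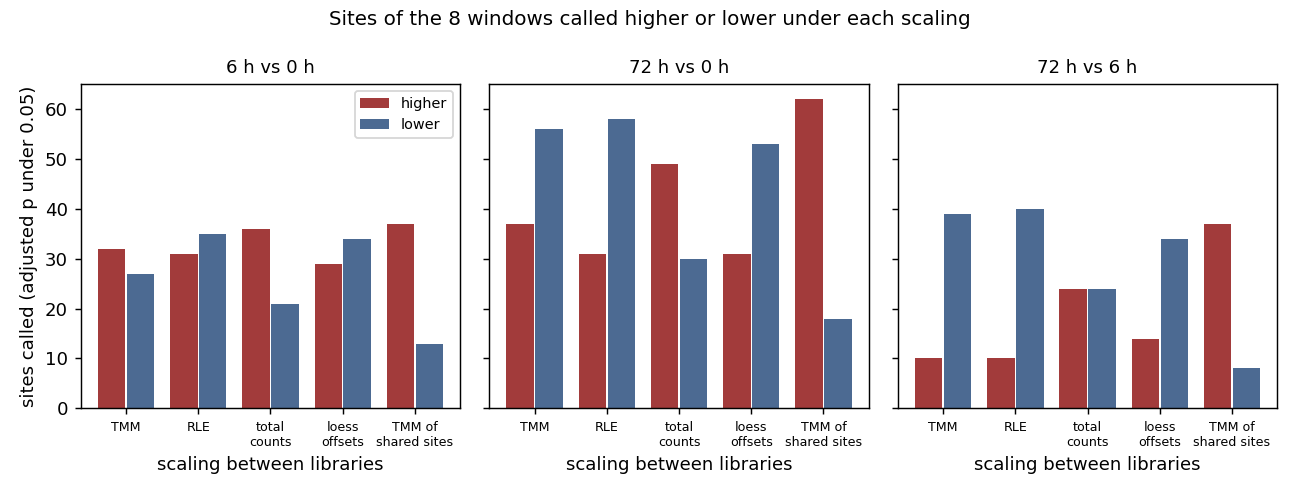
Number of sites of the 8 windows called higher (red) or lower (blue) in each comparison at an adjusted p under 0.05, under each of the 5 scalings. At 6 h the higher calls stayed between 29 and 37, while at 72 h the lower calls ranged from 18 under factors from shared peaks to 58 under RLE.

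Promoter and distal sites moved differently in the table, and the windows are read against their own class. Of the 17721 tested sites at starts of protein-coding genes, 73.0% were lower at 72 h than at 0 h and 9.69% higher, with a median of −1.21, and of the 160038 distal sites 24.4% were lower and 41.4% higher, with a median of 0.51. Among the 8 tested promoter sites of the platelet genes, 2 were higher and 3 lower at 72 h. Of the 20 other promoter sites, 4 were higher and 12 lower, with a median of −1.15. Of the 103 tested distal sites, 31 were higher and 41 lower, with a median of −0.20. Between 6 and 72 h, 1 promoter site was higher and 3 lower, where 5.02% and 65.7% of the sites at starts were called, and 9 distal sites were higher and 23 lower, where 23.9% and 15.9% of distal sites were. At 6 h, 3 promoter sites were higher and 2 lower, where 8.23% and 38.3% of the sites at starts were called. The distal sites at 6 h divided into 25 higher and 16 lower, where 25.0% and 14.4% of distal sites in the table were called.

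**Figure D3:**
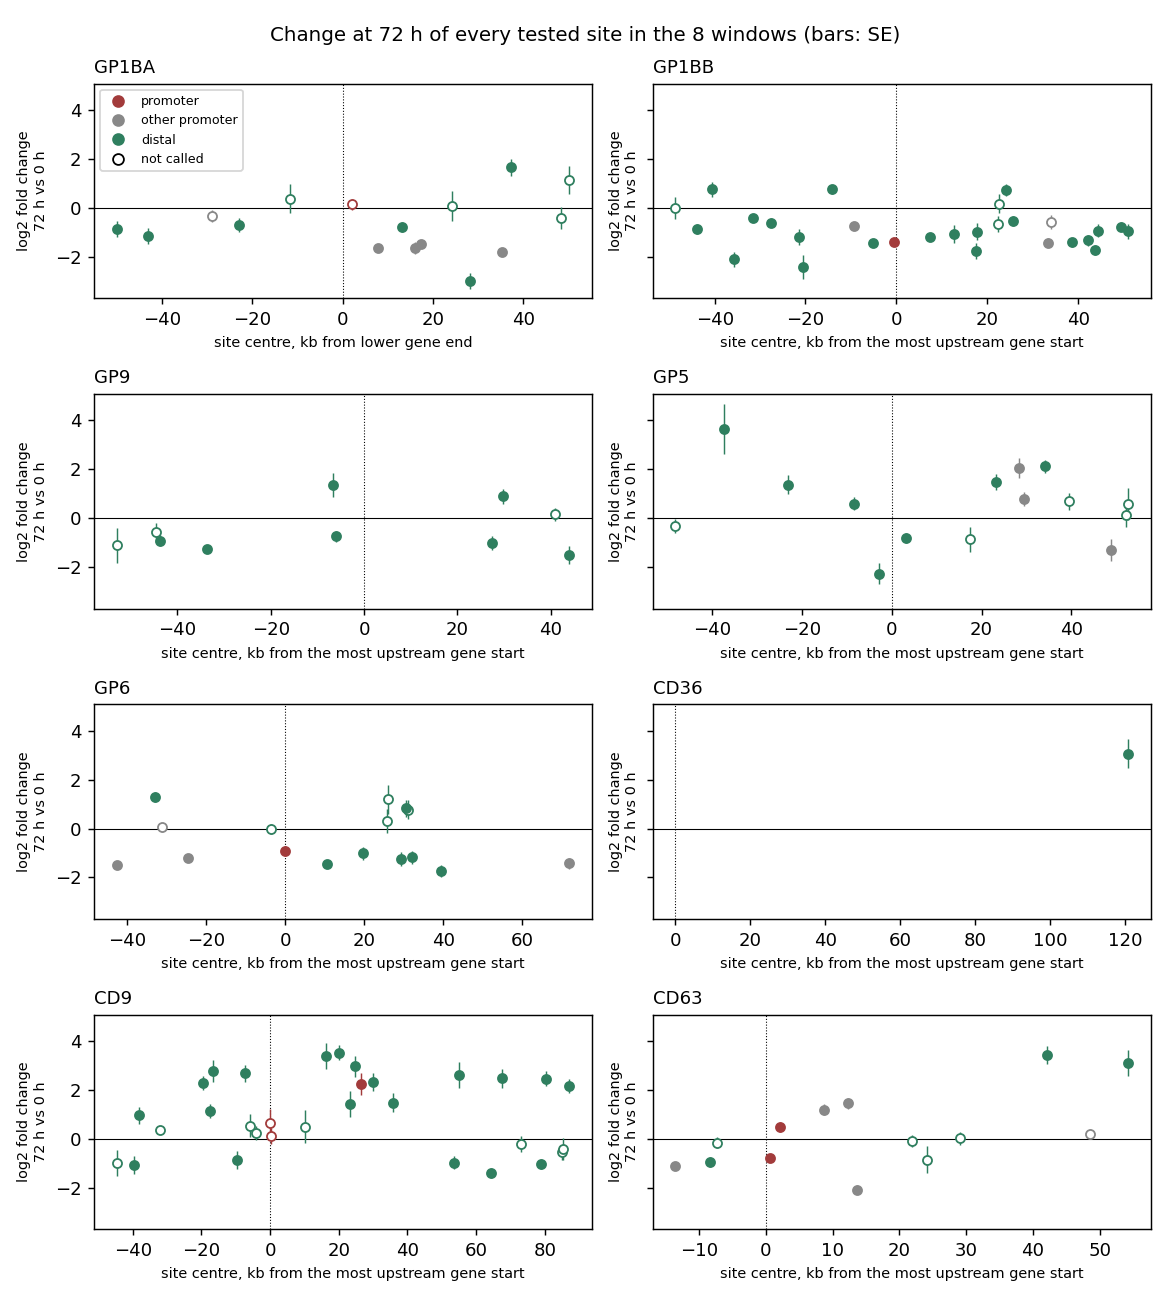
Log2 fold change of each tested site at 72 h against 0 h, with its SE as a bar, against the distance of the site's centre from the most upstream start of the gene (for GP1BA from the lower gene end) in kb, coloured by class of site. Filled points were called, open points were not. Most points of GP1BA, GP1BB, GP9 and GP6 lie below 0, and most called points of CD9 and GP5 lie above it.

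At 0 h, the level per kb of site ran in the order GP1BB, GP6, CD63, GP1BA and CD9. The site at the GP1BB start had 119.2 ± 21.7 CPM per kb, that at GP6 50.8 ± 2.15, the pair at CD63 34.6 ± 2.80 and 12.01 ± 2.30, and the gene-end site of GP1BA 8.90 ± 1.94 (SD, n = 2). The 3 sites of CD9 had 3.85 ± 0.605, 1.58 ± 1.02 and 0.864 ± 0.338, and the GP9 site 0.889 ± 0.581. The weaker CD63 site and that of GP1BA were neighbours whose gap, 12.01 against 8.90, was close to their spread, and the GP9 site lay within the range of the weakest CD9 sites. At 72 h the order began in the same way, with 45.3 ± 3.65 at GP1BB, 27.1 ± 2.61 at GP6, and 20.0 ± 1.68 and 16.9 ± 3.67 at CD63, where the last 2 overlapped between libraries.

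GP1BB, the beta chain of GPIb, had the strongest site of the 8 windows and the most lower calls at 72 h. The gene spans 19723539 to 19724771 on chromosome 22. Its promoter site, peak108655 (19721981 to 19724227), covered the start of GP1BB and the upper end of SEPTIN5, whose reads at this site cannot be told apart from those of GP1BB. It had 233 and 303 CPM at 0 h, 153 and 165 at 6 h, then 96.0 and 107.6 at 72 h, so the groups did not overlap on the TMM scale. At 6 h its log2 fold change stood at −0.75 (SE 0.13, edgeR adjusted p 7.2e-05), and at 72 h it had reached −1.40 (SE 0.13, edgeR adjusted p 8.6e-09), a call made in 4 of the 5 scalings at each time. The change from 6 to 72 h was −0.65 (SE 0.13, edgeR adjusted p 0.00037), called lower in 2 of the 5 scalings and higher in 1, under loess offsets (0.83). Under loess offsets the 72 h value turned to 0.88 and was called higher (edgeR adjusted p 4.64e-07). A deposited peak lay at this site in all 6 libraries.

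Around GP1BB, 21 of 28 sites were lower at 72 h and 3 higher, and 6 of the lower ones and 1 of the higher ones were called under all 5 scalings. The strongest distal site, peak108654 in SEPTIN5, 4.71 kb from the GP1BB start, had 81.9 and 110.5 CPM at 0 h, 70.0 and 61.0 at 6 h, then 37.0 and 33.4 at 72 h. It was thus lower at 72 h in both libraries, with a change of −1.45 (SE 0.15, edgeR adjusted p 4.1e-08), in 4 of the 5 scalings. The largest fall of the window, at peak108651 20.4 kb upstream, went from 1.75 and 1.86 CPM to 0.937 and 0.727 at 6 h, then 0.517 and 0.165 at 72 h. Its fold change of −2.41 (SE 0.50, edgeR adjusted p 0.00022) held in all 5 scalings but moved to −3.42 without 72 h replicate 1 and −1.80 without 72 h replicate 2.
A site in TBX1 44.1 kb downstream, peak108669, was highest at 6 h, with 3.83 and 4.06 CPM before, 7.84 and 7.94 at that time, then 1.84 and 2.29. It was higher at 6 h by 1.00 (SE 0.26, edgeR adjusted p 0.0036) and lower at 72 h than at 6 h, with a change of −1.93 (SE 0.26, 5.2e-06), the latter in all 5 scalings. The largest rise of the window was small. At peak108646, 40.3 kb upstream, 2.66 and 2.01 CPM at 0 h became 3.49 and 4.34 at 72 h, a change of 0.76 (SE 0.30, edgeR adjusted p 0.030) that was not called without 0 h replicate 2 (0.56, adjusted p 0.19), 72 h replicate 1 (0.90, 0.059) or 72 h replicate 2 (0.59, 0.23).

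GP1BA, the alpha chain that carries the binding site for von Willebrand factor, had a modest site inside the gene and no peak within 1000 bases of its lower end. The gene spans 4932277 to 4935023 on chromosome 17. The site, peak69159 (4934071 to 4934786), lay 237 bases from the upper end of the gene interval and 1794 from the lower. By general knowledge the gene is read toward higher coordinates, which puts this site toward its 3′ end. It had 5.39 and 7.36 CPM at 0 h, 7.33 and 7.05 at 6 h, then 6.39 and 7.78 at 72 h, and all 3 groups overlapped. No comparison was called on the TMM scale (edgeR adjusted p 0.63 at 6 h, 0.60 at 72 h and 0.96 between 6 and 72 h). Of the 5 scalings, 2 called the site higher at 72 h against 0 h and 1 called it higher at 72 h against 6 h. The share of the window's counts at this site was 2.38 ± 0.227% at 0 h, 3.87 ± 0.567% at 6 h, then 7.09 ± 0.505% at 72 h (SD, n = 2). That share rose while the level of the site itself was not called on the TMM scale. On that scale the sites of the window summed to 266.7 CPM at 0 h and 99.7 at 72 h. Starts of neighbouring genes held 85.8% of the counts at 0 h.

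Of the 16 tested sites around GP1BA, 9 were lower at 72 h and 1 was higher. Sites at the starts of the neighbours SLC25A11 with RNF167, PFN1, ENO3 with PFN1, and SPAG7 made up 4 of the 9, with fold changes from −1.82 to −1.48. The largest fall was distal, at peak69165 in SPAG7, 25.2 kb away. It had 5.85 and 6.26 CPM at 0 h, 2.39 and 4.21 at 6 h, then 0.802 and 0.731 at 72 h, a log2 fold change of −2.98 (SE 0.32, edgeR adjusted p 7.0e-08) in all 5 scalings, and its peak was present in both 0 h libraries and in neither 72 h library. The single rise, at peak69167 in CAMTA2, went from 1.17 and 0.860 CPM to 2.81 and 3.79 at 6 h, then 3.31 and 3.04 at 72 h. It was called in all 5 scalings at 6 h (1.75, SE 0.36, edgeR adjusted p 0.00045) and at 72 h (1.66, SE 0.35, 0.00023). The strongest distal site, peak69161 in RNF167, had 9.62 and 13.2 CPM at 0 h and 6.13 and 7.10 at 72 h, and its change of −0.79 (SE 0.22, edgeR adjusted p 0.0028) was called in 3 of the 5 scalings and lost without 0 h replicate 2 (−0.54, adjusted p 0.063).

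GP9, which associates with GPIb on the cell surface, showed almost no signal at its 1 RefSeq promoter start. Its interval runs from 129054845 to 129062406 on chromosome 3. Its promoter site, peak118859 (129061056 to 129061255), had 4 and 2 counts at 0 h, 0 and 16 at 6 h, then 4 and 2 at 72 h, too few to be tested. A peak was listed there in 1 library, 6 h replicate 2, the library that held the 16 counts. A stronger site, named here after its values were seen, lay across the lower end of the GP9 interval: peak118858 (129054273 to 129055168), 5.61 kb upstream of the start in the promoter table. GP9 lies on the + strand, so that end is the 5′ end of the interval, though the site was classed as distal. Peak118858 had 10.8 and 11.5 CPM at 0 h, 4.52 and 6.61 at 6 h, then 6.18 and 7.22 at 72 h. It was lower at both later times without overlap, called lower in 5 of the 5 scalings at 6 h and 3 of the 5 at 72 h.

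Around GP9, 5 of 10 tested sites were lower at 72 h and 2 higher, and none of these 7 was called under all 5 scalings. The strongest site, peak118856 in EFCC1, had 28.0 and 29.7 CPM at 0 h, 21.5 and 23.9 at 6 h, then 12.001 and 11.9 at 72 h (−1.27 at 72 h, SE 0.17, edgeR adjusted p 7.8e-07, 4 of the 5 scalings). It was not called at 6 h (edgeR adjusted p 0.10). By contrast peak118863 in RAB43, 43.7 kb downstream, had already fallen at 6 h, from 4.22 and 2.34 CPM to 1.19 and 1.01, with 1.27 and 0.990 at 72 h. The changes were −1.58 (SE 0.40, edgeR adjusted p 0.0031, all 5 scalings) and −1.52 (SE 0.37, 0.00098, 4 of the 5). The larger of the rises, at peak118857 6.58 kb upstream, went from 0.325 and 0.526 to 1.01 and 1.23 CPM (1.35, SE 0.50, edgeR adjusted p 0.021). It was not called without 0 h replicate 1 (1.07, adjusted p 0.11), 72 h replicate 1 (1.48, 0.056) or 72 h replicate 2 (1.20, 0.14).

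GP5 (chromosome 3, 194394821 to 194399266), a subunit of the complex that thrombin cleaves, had no site within 1000 bases of its start and no peak there in any library, yet its window gained reads. Counts over the 15 sites summed to 29.9 ± 0.957 CPM at 0 h, 57.0 ± 0.276 at 6 h, then 37.97 ± 1.54 at 72 h (SD, n = 2). At 6 h 8 sites were higher and 0 lower, 7 of them under all 5 scalings, and at 72 h 7 were higher and 3 lower. The median change, on the log2 scale, was 1.07 at 6 h and 0.59 at 72 h. Between these times 4 sites fell and 1 rose. All 8 sites higher at 6 h lay in ATP13A3, in LRRC15 or at the LRRC15 start, and none lay in GP5 itself.

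**Figure D4:**
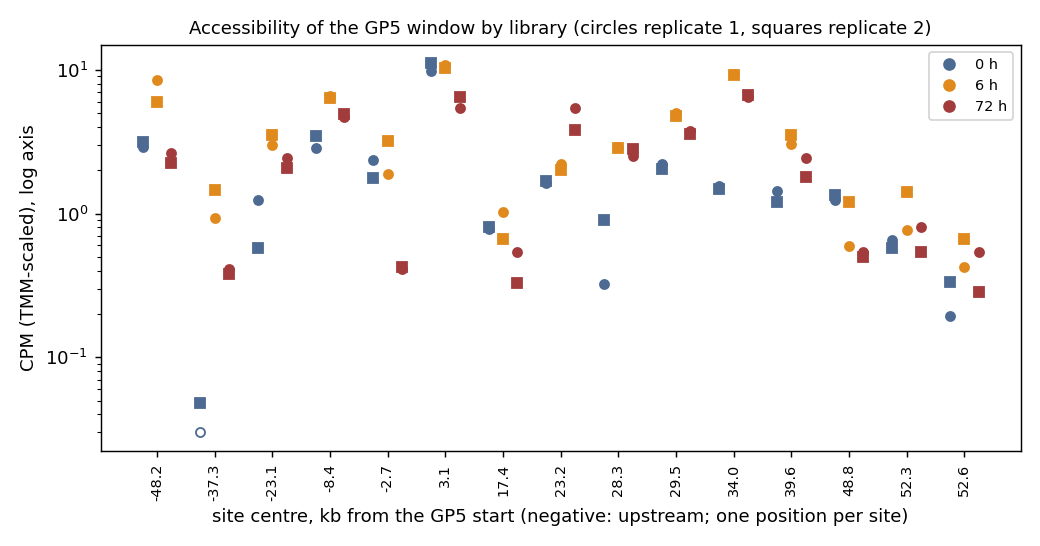
Level of the 15 sites of the GP5 window in each library, as TMM-scaled CPM on a log axis, ordered by distance from the GP5 start in kb. The open circle stands for 0 CPM. At 8 sites the 6 h libraries lie above the 0 h libraries and were called higher, while the site 3.1 kb into the gene was not called at 6 h and was lower at 72 h.

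The 2 sites nearest the GP5 start were lower at 72 h. Within the gene, peak122369 had 9.81 and 11.1 CPM at 0 h, 10.7 and 10.4 at 6 h, then 5.46 and 6.46 at 72 h. It was not called at 6 h (edgeR adjusted p 0.98) and was lower at 72 h, with a change of −0.81 (SE 0.21, edgeR adjusted p 0.0019), in 3 of the 5 scalings. The site 2.46 kb upstream, peak122370, had 2.34 and 1.77, then 1.87 and 3.19, then 0.414 and 0.424 CPM, a change at 72 h of −2.27 (SE 0.42, edgeR adjusted p 6.7e-05) against 0 h in all 5 scalings. The largest rise was at a site nearly without reads before treatment: peak122373 in ATP13A3, 37.1 kb upstream, had 1 count in the 0 h libraries together, 57 at 6 h and 32 at 72 h. The ratio of CPM was 47.8 at 6 h (exact 95% interval 8.23 to 1919, counting error only) and 14.3 at 72 h (2.40 to 583.7), with edgeR adjusted p-values of 7.6e-05 and 0.0038 and calls in all 5 scalings. Leaving out 0 h replicate 1 or 0 h replicate 2 kept the call at 6 h (edgeR adjusted p 0.0012 and 0.00076) and at 72 h (0.031 and 0.013).

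GP6 (chromosome 19, 55013705 to 55038264), the collagen receptor, had an open start at 0 h that was lower at both later times. Of all tested sites at starts, 38.3% were lower at 6 h and 73.0% at 72 h. Their median change at 72 h was −1.21, a larger fall than that of the GP6 start. The promoter site peak85802 (55037923 to 55038806) had 43.6 and 46.3 CPM at 0 h, 21.5 and 32.0 at 6 h, then 22.4 and 25.6 at 72 h. Both later times lay below 0 h and overlapped each other. It was lower at 6 h, with a change of −0.73 (SE 0.17, edgeR adjusted p 0.0019), in all 5 scalings though lost without 6 h replicate 1 (−0.49, adjusted p 0.057), and at 72 h, with −0.91 (SE 0.17, edgeR adjusted p 9.0e-05), in 3 of the 5. The stronger site of the gene lay inside it, 9.73 kb from the start: peak85801 (55026712 to 55028537) had 94.1 and 96.6 CPM at 0 h, 48.7 and 45.4 at 6 h, then 33.9 and 35.6 at 72 h. It fell at both times, with changes of −1.02 at 6 h (SE 0.13, edgeR adjusted p 3.2e-06, all 5 scalings) and −1.46 at 72 h (SE 0.14, 8.6e-09, 4 of the 5), though under loess offsets the 72 h value was 0.07.

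In the whole GP6 window 9 of 16 sites were lower and 2 higher at 6 h, and the same numbers held at 72 h, with all 9 lower sites and both higher sites shared between the times. Under all 5 scalings 4 lower calls remained at 6 h and 1 at 72 h. That 1 was peak85793 in NLRP2, which had 13.5 and 10.1 CPM at 0 h, 5.11 and 4.05 at 6 h, then 3.08 and 3.99 at 72 h (−1.73 at 72 h, SE 0.25, edgeR adjusted p 2.6e-06). The rise called in all 5 scalings was at peak85806, 32.5 kb upstream and 1286 bases from RDH13. It had 4.87 and 5.83 CPM at 0 h, 15.4 and 18.1 at 6 h, then 11.8 and 14.2 at 72 h, changes of 1.65 (SE 0.21, edgeR adjusted p 2.5e-06) and 1.28 (SE 0.21, 1.8e-05).

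CD36 (chromosome 7, 80602207 to 80679274), the scavenger receptor, was nearly bare of accessible sites. None of its 6 RefSeq starts had a peak within 1000 bases in any library, and its window of 177.1 kb held 1 site, where the median protein-coding gene of 20033 had 15 and 5.25% had 0 or 1. That site, peak155507 (80722651 to 80723224), lay 43377 bases past the gene and 76.2 kb from its nearest start. It had 0.325 and 0.143 CPM at 0 h, 1.19 and 0.443 at 6 h, then 2.28 and 1.51 at 72 h, when both libraries had a peak. The rise at 72 h was 3.06 (SE 0.59, edgeR adjusted p 1.0e-04), called in all 5 scalings, and 3.67 without 0 h replicate 1. The 6 h level was not called (edgeR adjusted p 0.061).
CLEC1B (chromosome 12, 9993075 to 10001899) had 0 sites in a window of 108.8 kb and 0 peaks in all 6 libraries, as had 3.46% of protein-coding genes for sites. Its start lies among other C-type lectin genes on chromosome 12. Of 10 of these neighbours, CLEC2B and CD69 had a promoter site, and CD69, an early activation antigen, was called higher at 6 h and not called at 72 h at 1 of its 2 sites. At that site the mean was 14.5 CPM at 0 h, 34.3 at 6 h and 12.8 at 72 h.

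CD9 (chromosome 12, 6199946 to 6238266), a tetraspanin of the platelet surface, had the most sites of the 9 genes and the most higher calls at both times. At 6 h 14 of its 31 sites were higher and 1 lower, and each of these 15 calls was made under all 5 scalings. At 72 h 16 were higher and 5 lower, 12 of the higher ones and 0 of the lower ones under all 5. Called rises ran from 1.30 to 2.98 at 6 h and from 0.96 to 3.53 at 72 h, with medians of 2.32 and 2.40. Peaks in the window numbered 10 and 11 at 0 h, 13 and 23 at 6 h, then 25 and 26 at 72 h, and 6 h replicate 1, the shallowest library, was the lower of its pair.

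The body of the gene was nearly closed before treatment. All 10 sites that overlap CD9 had under 3 CPM in both 0 h libraries, and 6 were higher at 6 h and 7 at 72 h, with 0 lower at either time. The largest of these was peak38862 (6219591 to 6220379), 20.0 kb into the gene. It had 0.845 and 0.860 CPM at 0 h, 3.75 and 3.54 at 6 h, then 9.52 and 10.3 at 72 h, so that each time lay above the one before without overlap. The changes were 2.08 (SE 0.32, edgeR adjusted p 2.1e-05) at 6 h, 3.53 (SE 0.30, 2.4e-09) at 72 h and 1.45 (SE 0.24, 6.6e-05) between them, all in 5 of 5 scalings.

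**Figure D5:**
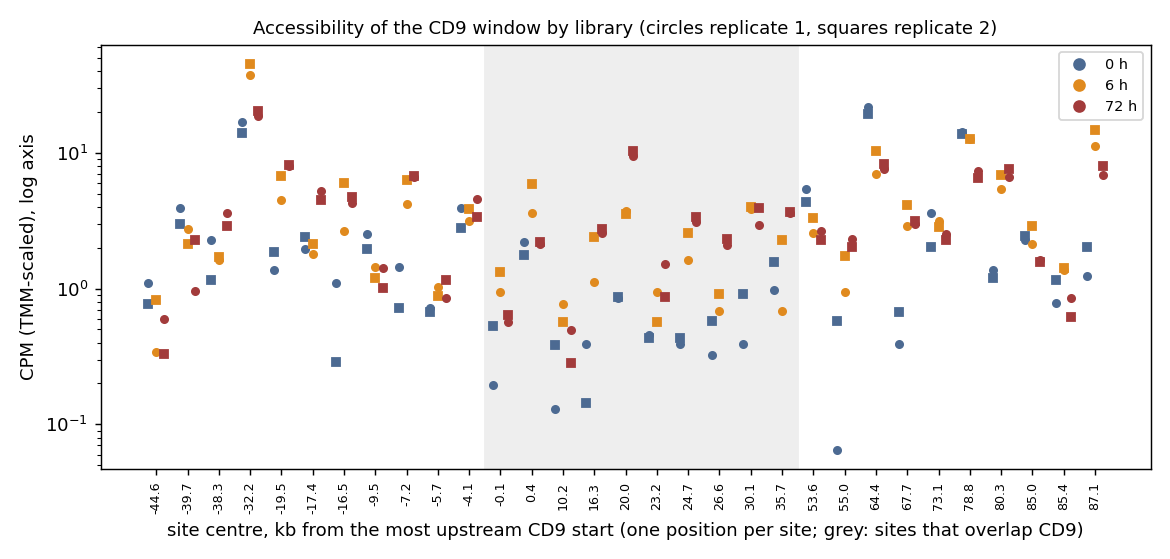
Level of the 31 sites of the CD9 window in each library, as TMM-scaled CPM on a log axis, ordered by distance from the most upstream CD9 start in kb, with sites that overlap the gene on grey. Within the gene the 0 h libraries lie lowest at most sites, and the site at 20.0 kb rises at each time.

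The 3 promoter sites of CD9 were called at different times. The site over the start after the most upstream one, peak38859 (6200064 to 6200579), had 2.21 and 1.77 CPM at 0 h, 3.58 and 5.85 at 6 h, then 2.12 and 2.19 at 72 h. It was higher at 6 h by 1.30 (SE 0.32, edgeR adjusted p 0.0027, all 5 scalings; 0.80 and adjusted p 0.14 without 6 h replicate 2), and at 72 h its libraries lay in the range of 0 h (edgeR adjusted p 0.74). The most upstream start lies in peak38858 (6199731 to 6199958), which had 0.195 and 0.526, then 0.937 and 1.33, then 0.569 and 0.637 CPM. Its rise at 6 h, 1.62 (SE 0.56, edgeR adjusted p 0.025), was not called without 0 h replicate 1 (1.097, adjusted p 0.17), 6 h replicate 2 (1.24, 0.23), 72 h replicate 1 (1.56, 0.053) or 72 h replicate 2 (1.56, 0.055), and was 2.57 without 0 h replicate 2. The site of the most downstream start, peak38865 (6226289 to 6226808), centred 26.6 kb into the gene, had 0.325 and 0.573 CPM at 0 h, 0.682 and 0.917 at 6 h, then 2.09 and 2.31 at 72 h. This one rose late, by 2.24 at 72 h (SE 0.45, edgeR adjusted p 0.00015, all 5 scalings), and was not called at 6 h (edgeR adjusted p 0.20).

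Outside the gene, the distal sites of CD9 also differed in timing. The strongest, peak38850, 31.5 kb upstream, had 16.8 and 14.0 CPM at 0 h, 37.3 and 45.0 at 6 h, then 18.8 and 20.4 at 72 h, a rise at 6 h of 1.43 (SE 0.17, edgeR adjusted p 7.5e-07, all 5 scalings) and a change from 6 to 72 h of −1.08 (SE 0.16, 2.3e-05, 4 of the 5). At the far downstream edge, peak38877 had 1.23 and 2.01, then 11.2 and 14.8, then 6.80 and 8.04 CPM, a change of 2.98 at 6 h (SE 0.28, edgeR adjusted p 3.3e-08) that stood at 2.16 at 72 h (SE 0.28, 7.7e-07), both in all 5 scalings. It is nearer to the start of PLEKHG6 than to that of CD9. Against these, peak38870, 37.7 kb past the last CD9 start, fell from 21.8 and 19.3 CPM to 6.99 and 10.3 at 6 h, then 7.58 and 8.23 at 72 h (−1.22 at 6 h, SE 0.21, edgeR adjusted p 8.2e-05; −1.38 at 72 h, SE 0.21, 4.8e-06).

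CD63 (chromosome 12, 55723535 to 55730041), the tetraspanin of granules and lysosomes, had a peak in every library at the stronger of its promoter sites. The stronger promoter site, peak41626 (55728605 to 55730293), covers the most upstream start. It had 55.0 and 61.7 CPM at 0 h, 55.1 and 58.3 at 6 h, then 31.7 and 35.7 at 72 h. It was not called at 6 h (edgeR adjusted p 0.84) and was lower at 72 h, with a change of −0.79 (SE 0.14, edgeR adjusted p 4.5e-05), a fall called in 2 of the 5 scalings. Under loess offsets the value was 0.62 and under factors from shared peaks 0.18. The site over the more downstream starts, peak41625 (55727388 to 55728326), went up: 12.8 and 9.75 CPM at 0 h, 18.0 and 20.9 at 6 h, then 13.4 and 18.3 at 72 h. The rise was 0.80 at 6 h (SE 0.21, edgeR adjusted p 0.0036, all 5 scalings; 0.63 and adjusted p 0.072 without 6 h replicate 2). At 72 h it was 0.50 (SE 0.20, edgeR adjusted p 0.033), and not called without 0 h replicate 2 (0.31, adjusted p 0.25) or 72 h replicate 2 (0.26, 0.41). A peak was listed at this site in no 0 h library and in all 4 later ones.

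Of the 14 tested sites of the CD63 window, 5 were higher and 2 lower at 6 h, and 5 higher and 4 lower at 72 h. Over all tested sites 23.4% were higher and 16.8% lower at 6 h, and 38.2% and 29.2% at 72 h. The counts of the window at 72 h were thus close to the shares of the whole table. The largest rise of the window was 39.6 kb from CD63 in ITGA7, an integrin gene. This site, peak41618, had 0.715 and 0.382 CPM at 0 h, 3.07 and 3.38 at 6 h, then 5.41 and 5.97 at 72 h, changes of 2.61 (SE 0.38, edgeR adjusted p 1.2e-05) and 3.42 (SE 0.36, 4.8e-08) in all 5 scalings. Its largest fall, named here after its values were seen, was at the starts of BLOC1S1 and ITGA7. This site, peak41622, had 29.4 and 25.2 CPM at 0 h, 12.7 and 12.5 at 6 h, then 6.08 and 6.86 at 72 h, a change at 72 h of −2.07 (SE 0.19, edgeR adjusted p 5.8e-09) in all 5 scalings. The strongest distal site, peak41628 toward GDF11, which was also the distal site with the largest fall, went from 13.8 and 15.9 CPM to 5.03 and 8.32 at 6 h, then 7.60 and 7.85 at 72 h. Its changes were −1.11 (SE 0.23, edgeR adjusted p 0.00058, all 5 scalings) and −0.94 (SE 0.22, 0.00080, 3 of the 5).

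Promoter sites of related genes were counted in the same fit. Of 16 other platelet receptor genes 12 had a promoter site, and P2RY12, SELP and TREML1 were among those with none. Of their 20 sites 3 were higher and 4 lower at 6 h, and 7 higher and 7 lower at 72 h with a median of −0.33, against 9.69% higher and 73.0% lower among all promoter sites. The genes with a higher site at 72 h were ITGA2, CD226, THBD, F2RL2 and FCGR2A. Those with a lower site were ITGA2B, ITGB3, PEAR1, ESAM, F2R, P2RY1 and FCGR2A, the last at its other site. At ITGA2, the other collagen receptor chain of platelets, one site went from a mean of 0.490 CPM before treatment to 4.61 at 6 h, then 6.42 at 72 h. The thrombomodulin gene THBD went from 0.191 to 0.632 and 2.15. Under all 5 scalings 4 of the 7 higher sites and 1 of the 7 lower ones were called. That lower site was the one of P2RY1, with means of 65.8, 38.7 and 16.1 CPM at 0, 6 and 72 h.

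Among 9 signalling partners of GP6, CLEC1B and GPIb, 7 had a promoter site and FCER1G, the gamma chain that GP6 needs, and FLNA had none. Of 13 sites, 4 were higher and 5 lower at 6 h, and 2 higher and 7 lower at 72 h. Those higher at 6 h were the site of LAT and neighbouring sites of the single gene YWHAZ, which were not called at 72 h. The strongest of these YWHAZ sites had means of 4.76, 19.9 and 3.33 CPM at 0, 6 and 72 h. Among all promoter sites 8.23% were higher and 38.3% lower at 6 h, and 9.69% higher and 73.0% lower at 72 h, and the counts of this and the next lists are read against these shares. The higher ones at 72 h were LAT, an adaptor below GP6, with means of 0.651, 6.56 and 6.95 CPM, and a weak site of SYK, with 0.162, 0.196 and 0.633. The main promoter site of SYK went the other way, with 15.6, 10.6 and 5.61, and was lower at 72 h in all 5 scalings. PLCG2, a phospholipase of the same pathway, fell from 8.95 to 1.98 and 0.477 CPM at one site. Other tetraspanin genes had 0 higher sites at either time: all 12 sites of 9 genes were lower at 72 h, 6 of them under all 5 scalings, and 6 were lower at 6 h. For the CD36 relatives SCARB1 and SCARB2, 2 of 3 sites were lower at 72 h and none higher.

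As a check of the line, 7 of 8 erythroid marker genes had a promoter site, with peaks at all 7 in both 0 h libraries. Their summed level was 282.6 to 290.6 CPM at 0 h, 192.8 to 202.7 at 6 h and 100.4 to 103.2 at 72 h, and 9 of their 11 sites were lower at 72 h, 6 of them under all 5 scalings. At that time 73.0% of all promoter sites were lower, the share against which this count and those of the next markers are read. Of 5 megakaryocyte markers ITGA2B and ITGB3 had one, and PF4 and VWF were among those with none. The pair summed to 40.1 to 40.8 CPM at 0 h, 24.7 to 24.8 at 6 h and 23.5 to 24.9 at 72 h. Both sites were lower at 72 h than at 0 h, each in 2 of the 5 scalings, but by different courses. The ITGA2B site had means of 25.9, 9.19 and 14.4 CPM. It was lower at 6 h, then higher at 72 h than at 6 h, each in all 5 scalings. The ITGB3 site, with 14.5, 15.5 and 9.74 CPM, was not called at 6 h and was lower at 72 h than at 6 h, in 2 of the 5. Monocyte or macrophage markers had sites at 3 of 4 genes, with CD14 having none, and summed to 67.7 to 73.6, 49.5 to 58.5 and 40.4 to 46.5 CPM at the 3 times. Of their 5 sites 1 was higher at 72 h, that of CSF1R, with means of 4.40, 9.12 and 15.5 CPM, and 3 were lower. The lower ones were that of ITGAM, with 4.04, 1.88 and 1.09 CPM, and 2 of SPI1, the stronger of them with 38.1, 19.7 and 11.6. Lymphoid markers had sites at 2 of 4 genes, with sums of 20.9 to 32.2, 19.8 to 21.3 and 18.8 to 21.2 CPM. Their part in the changes above was not tested. Counts in sites ran from 12258890 to 35548737 per library, lowest in 6 h replicate 1, so 1 count was worth 0.0236 to 0.0852 CPM. Sites under about 1 CPM therefore rest on few reads.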

How the data were processed

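Open chromatin was measured in 6 K562 libraries. Per the submitters' processing notes, tools used by the authors included Trim Galore 0.4.3, BWA 0.7.17, SAMtools 1.9, deepTools 3.0.1, MACS2, bedtools 2.26 and DESeq with build hg38. The authors deposited 1 table of read counts per site with their own log2 fold changes, adjusted p-values and class names, and a peak list per library with scores, fold enrichment and −log10 p and q. Peaks were used for presence at a site.

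Counts were tested with edgeR 4.0.16 (R 4.3.3): TMM, filterByExpr with a minimum count of 10, quasi-likelihood fit of 3 groups, and Benjamini-Hochberg adjustment over 177759 sites after 3376 were removed. The common biological coefficient of variation was 0.166. Sites with few reads, and sites shared with a neighbouring gene, are least certain. Alternatives were other scalings, DESeq2 1.42.0, no filter, stricter thresholds, nearest-gene assignment, a replicate block and leaving out each library. Tables were joined with pandas 2.3.3 in Python 3.11.15.

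Named sites per gene were every promoter site, and among distal sites the strongest, the largest called rise and fall at 72 h, and the largest called change at 6 h. The members and lists were chosen with earlier results of these data known.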

Additional observations from a re-analysis of the deposited data

How the results depend on the processing

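Over 13 alternatives, the called changes of the named sites kept their direction and call in 740 of 845 cases, kept their direction without a call in 87 and reversed in 18. All reversals came under loess offsets or under TMM factors from shared peaks, and the cause was not tested. Under loess offsets, peak108655 changed by 0.0529 at 6 h, 0.88 at 72 h and 0.83 between 6 and 72 h, peak108654 by 0.16 at 72 h and 0.24 between 6 and 72 h, peak85802 by 0.16 at 72 h, peak85801 by 0.0697 and 0.65, and peak41626 by 0.62 and 0.27. Under the factors from shared peaks the 72 h changes against 0 h were 0.18 at peak69161, 0.0315 at peak108669, 0.15 at peak122369, 0.0625 at peak85802, 0.18 at peak41626 and 0.0255 at peak41628, and those against 6 h were 0.0256 at peak108655 and 0.24 at peak85801.

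Counts of called sites moved by over 1.5 times as follows. With the limit set at 0.01 for the adjusted p and at 1 for the size of the log2 change, 34 sites were called at 6 h with 8 lower, 59 at 72 h with 33 lower, and 20 between 6 and 72 h with 5 higher and 15 lower. Factors from shared peaks gave 13 lower at 6 h, 62 higher and 18 lower at 72 h, and 37 higher and 8 lower between 6 and 72 h. Total counts gave 30 lower at 72 h, and 24 higher and 24 lower between 6 and 72 h. DESeq2 gave 4 higher between 6 and 72 h. Sites whose nearest start was a member's gave 25 calls at 6 h (16 higher, 9 lower), 35 at 72 h (20 higher, 15 lower) and 14 between 6 and 72 h (6 higher, 8 lower); this alternative has fewer sites by construction.

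Leaving out each library gave 47 to 57 calls at 6 h (26 to 33 higher, 20 to 28 lower), 74 to 93 at 72 h (29 to 37 higher, 45 to 56 lower) and 28 to 53 between 6 and 72 h (4 to 14 higher, 24 to 41 lower), the lone library of a time being assumed to vary like the others. Same-numbered libraries deviated together with correlations of 0.05 to 0.09 across sites, so the numbers were not taken to pair the samples. With a replicate block 62, 94 and 53 sites were called at 6 h, at 72 h and between them, and no named call was lost. Libraries of a time differed beyond counting error, at a chi-square per degree of freedom from 3.51 to 4.97. With 2 libraries a time and the shallowest at 6 h, changes at sites under about 1 CPM are the least precise.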

Other observations

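The authors' deposited table gives each site a class name, and 111 of the 133 sites (83.5%) are named static, against 79.2% of all sites. Of the other 22, 15 carry a name beginning with up and 7 one beginning with down. At 72 h edgeR called 12 of the 15 higher and 3 lower, and 5 of the 7 higher and 2 lower. Over the whole table, the median log2 value for 72 h in the authors' deposited table was positive in all 4 named classes, at 2.257 for downEarly, 2.30 for downLate, 2.261 for upEarly and 2.28 for upLate. The signs of the 93 calls made here at 72 h matched the log2 fold changes of the authors' deposited table in 93 of 93 sites. The class names were therefore not used.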
